A study of Homo sapiens with 12 samples.

Results

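The genes described here are 37 genes of glycolysis and of the transcriptional response to low oxygen, chosen by name from the 60617 genes of the deposited expression table. They comprise 17 glycolytic enzymes, 6 genes of lactate transport or of the switches around phosphofructokinase and pyruvate dehydrogenase, 3 genes that make up or restrain hypoxia-inducible factor (HIF), and 11 further HIF target genes. With a minimum of 1 CPM (reads scaled to 1000000 per library) in at least 3 libraries, 35 of the 37 could be measured. EGLN3, a prolyl hydroxylase gene, held no more than 0.0653 CPM in any library, and CA9, the carbonic anhydrase IX gene, had no read in the 12 libraries, where 3 reads would be 0.0808 to 0.128 CPM. Of the measured genes, SLC16A3 and ANGPTL4 passed this minimum only through REH libraries, and ADM only through the 3 REH libraries from CSF.

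The RNA came from 2 established human cell lines of B-cell acute lymphoblastic leukemia, called NALM-6 and REH. Cells of each spent 48 h in standard media (RPMI with 10% FCS, fetal calf serum) or in human cerebrospinal fluid (CSF), which bathes the brain. This gave 4 groups of 3 libraries, with 23412869 to 37146556 reads each: NALM-6 media, NALM-6 CSF, REH media and REH CSF. The series title concerns the drug methotrexate, but no label names a drug treatment, and no label gives an oxygen or glucose concentration or the number of CSF donors. Each line is a single line and stands for no other leukemia. No label tells whether the libraries of a group came from different cultures, so their spread, on which every p-value rests, may be technical. B lymphoblast markers held at least 1 CPM in each library for 8 of 8 genes in NALM-6 and for 7 of 8 in REH, where VPREB1, a surrogate light chain gene, had at most 0.0704 CPM.

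Glycolysis splits glucose into pyruvate in a chain of enzymes that starts with hexokinase (HK1, HK2), is paced by phosphofructokinase (PFKL, PFKM, PFKP) and yields ATP at phosphoglycerate kinase (PGK1) and pyruvate kinase (PKM). Lactate dehydrogenase then turns pyruvate into lactate, which leaves the cell through monocarboxylate transporters, a pattern that dividing leukemia cells use even with oxygen present. HIF is a transcription factor whose alpha subunit, such as the product of HIF1A, is marked for destruction by the prolyl hydroxylases EGLN1 and EGLN3 when oxygen is plentiful. Many glycolytic enzymes are HIF targets, together with genes of other duties such as VEGFA, ADM and NDRG1, but all of these genes also answer to other signals.

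A pair of libraries stood apart from their replicates and bear on most of the values. In NALM-6 media 1 the 81 ribosomal protein genes held 19.7% of reads, where NALM-6 media 2 and 3 had 7.71% and 6.997%. In REH CSF 3 they held 9.40%, where REH CSF 1 and 2 had 5.21% and 5.69%. Reads of both came from shorter genes, with a mean exonic length of 4.62 and 5.34 kb against 5.98 to 6.34 kb in the other libraries. Among the 35 measured genes, 23 differed in NALM-6 media 1 by more than 0.5 on the log2 scale from the mean of its replicates, and 11 did so in REH CSF 3. HIF1A stood at 10.6 CPM in NALM-6 media 1 against 135 and 152 CPM, and EGLN1 stood at 2.89 CPM against 17.6 and 18.8 CPM. Because of this, results are given over all 12 libraries and again without these 2. The part that RNA quality or library preparation had in the difference was not tested.

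ENO2 and NDRG1 rose in CSF in both lines. ENO2 encodes enolase 2, the isoform known from neurons, and lies on chromosome 12 from 6913745 to 6923698 (GRCh38, ENSG00000111674). In NALM-6 it stood at 21.9, 19.8 and 21.2 CPM in the 3 media libraries and at 42.6, 37.7 and 42.5 CPM in the 3 CSF libraries. In REH it stood at 24.8, 25.5 and 25.5 CPM in media and at 51.9, 54.2 and 55.3 CPM in CSF. Media and CSF libraries were thus well separated in each line, and the library that stood apart lay close to its replicates. Fitted with limma as a difference of log2(CPM + 1), the rise was 0.93 in NALM-6 (SE 0.11, adjusted p = 0.000367) and 1.06 in REH (SE 0.11, adjusted p = 7.15e-05), with ratios of mean CPM of 1.95 and 2.13. The differences were 0.96 and 1.04 without the 2 libraries.

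NDRG1 encodes a cytoplasmic protein that is induced by hypoxia, by differentiation and by several stresses, and lies on chromosome 8 from 133237171 to 133302022 (ENSG00000104419). It was read at 5.61, 9.95 and 8.10 CPM in NALM-6 media and at 22.0, 20.1 and 22.3 CPM in NALM-6 CSF. NDRG1 in REH was read at 2.58, 3.90 and 2.98 CPM in media and at 8.49, 10.7 and 9.47 CPM in CSF. In each line every CSF library lay above every media library. The rise was 1.37 in NALM-6 (SE 0.19, adjusted p = 0.00117) and 1.35 in REH (SE 0.19, adjusted p = 0.000661) on the log2(CPM + 1) scale, and 1.17 and 1.36 without the 2 libraries. In bulk RNA, more cells that express a gene and more of its RNA per cell cannot be told apart. With a correction for gene length together with the replicate number as a block, the NALM-6 value of NDRG1 no longer passed (adjusted p = 0.0699).

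**Figure D1:**
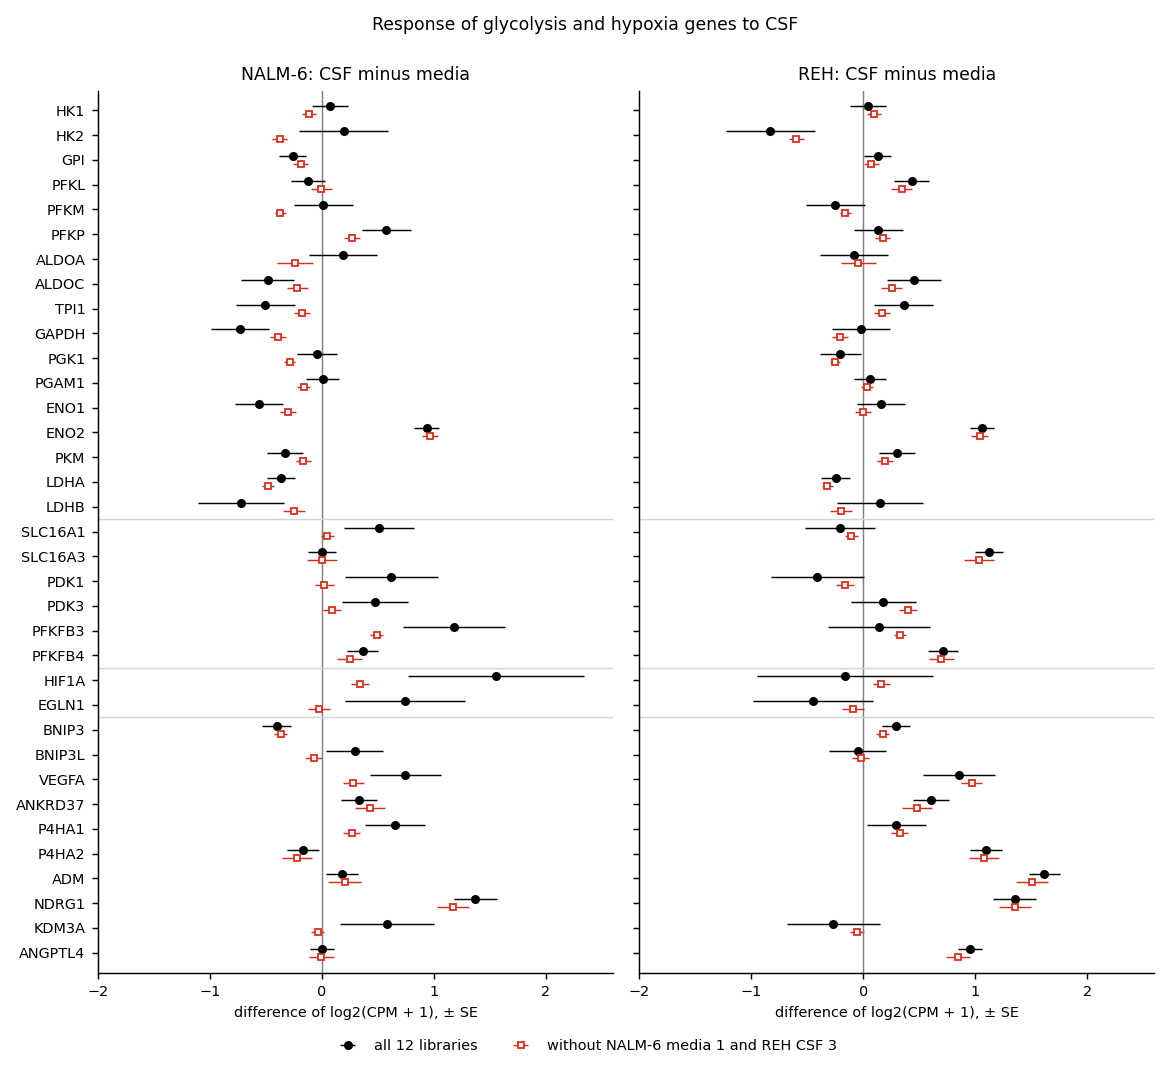
Differences between CSF and media for the 35 measured genes in NALM-6 (left) and REH (right), as differences of log2(CPM + 1) with their SE on the horizontal axis, from the fit of all 12 libraries (filled circles) and from the fit without NALM-6 media 1 and REH CSF 3 (open squares). Grey lines divide glycolytic enzymes, transport and switch genes, HIF control and other HIF targets. ENO2 and NDRG1 lie near or above 1 in both panels under both fits, whereas HIF1A and PFKFB3 move toward 0 in NALM-6 once the 2 libraries are left out.

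In REH, 6 more of the genes rose. P4HA2 encodes a subunit of prolyl 4-hydroxylase, which modifies collagen (chromosome 5, 132191838 to 132295315). It went from 6.11, 7.11 and 6.71 CPM in media to 12.5, 18.2 and 15.7 CPM in CSF (log2 1.10, SE 0.14, adjusted p = 0.000358). PFKFB4 encodes a bifunctional enzyme that sets the level of fructose 2,6-bisphosphate, the activator of phosphofructokinase. It went from 5.34, 5.28 and 4.86 CPM to 8.45, 9.52 and 9.30 CPM (log2 0.71, SE 0.14, adjusted p = 0.00481), a call lost with the length correction and the replicate block together (adjusted p = 0.0606). The REH groups of P4HA2 and PFKFB4 did not overlap. ANKRD37 encodes a small ankyrin repeat protein. It went from 1.99, 1.23 and 1.16 CPM to 2.31, 2.48 and 3.39 CPM (log2 0.60, SE 0.16, adjusted p = 0.0280). The lowest CSF library of ANKRD37 lay only slightly above the highest media library. Its call was the least stable of the 8: it was lost in edgeR, in DESeq2, with median-of-ratios scaling, with no filter, with each line alone, with the length correction, with the replicate block, and without REH CSF 2, REH CSF 3, REH media 2 or REH media 3 (adjusted p between 0.00981 and 0.190 over the settings). ANKRD37 also shares 909 of its 2580 exonic bases with UFSP2 on the opposite strand, and the strand setting of the counting is not given in the sources used here.

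SLC16A3, ADM and ANGPTL4 rose in REH from low levels. SLC16A3 encodes the monocarboxylate transporter MCT4, which exports lactate. It stood at 1.22, 1.27 and 0.695 CPM in REH media and at 2.90, 3.502 and 4.04 CPM in REH CSF (log2 1.12, SE 0.13, adjusted p = 0.000128). Part of its exons (482 of 8995 bases) overlaps CSNK1D on the opposite strand, a gene read at a mean of 138 CPM. In the 6 NALM-6 libraries SLC16A3 had no read. Its call in REH was lost with the length correction and the replicate block together (adjusted p = 0.0552). ADM encodes adrenomedullin, a vasodilator peptide. It rose from 0.279, 0.563 and 0.397 CPM to 2.70, 3.33 and 4.04 CPM, or from 36 to 264 reads over the group (log2 1.62, SE 0.14, adjusted p = 2.26e-05). The ratio of its mean CPM was 8.13, and the smaller difference on the log2(CPM + 1) scale shows how that scale compresses genes near 1 CPM. ANGPTL4 encodes a secreted inhibitor of lipoprotein lipase. It rose from 1.92, 1.58 and 1.85 CPM to 3.64, 4.40 and 5.18 CPM (log2 0.95, SE 0.11, adjusted p = 0.000137). For these 3 genes, every REH CSF library lay above every REH media library.

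**Figure D2:**
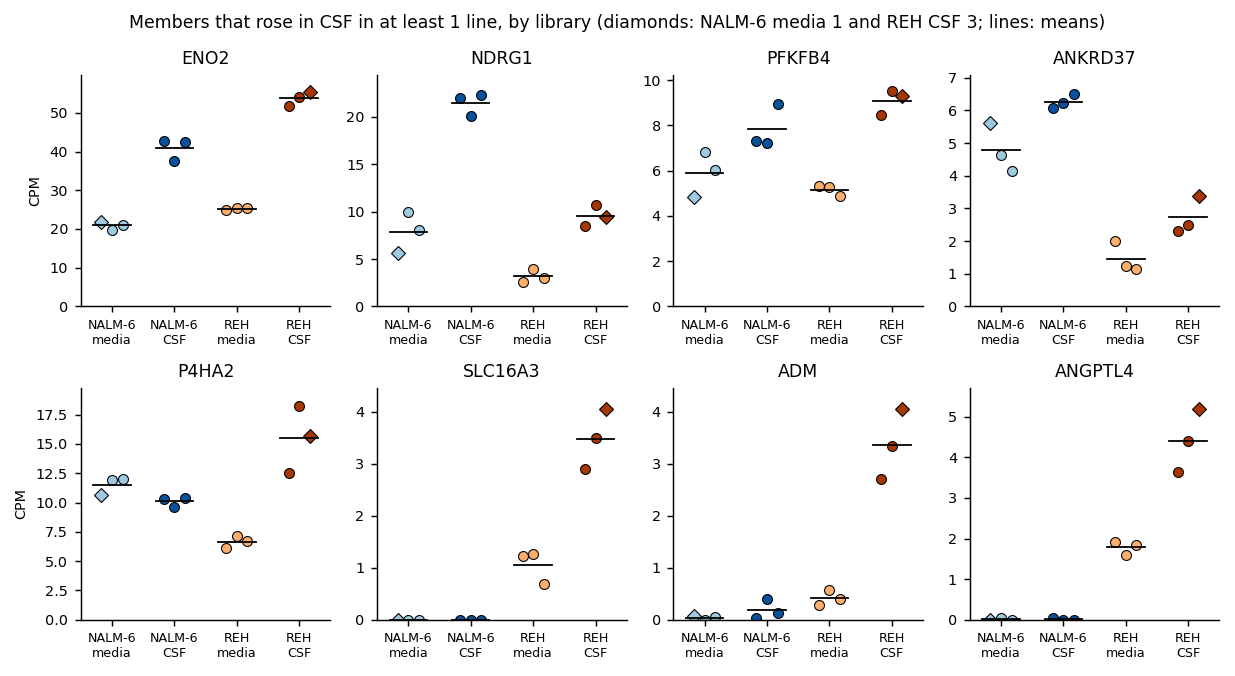
CPM per library (vertical axis, from 0) of the 8 genes that rose in CSF in at least 1 line, by group on the horizontal axis; points are libraries, diamonds mark NALM-6 media 1 and REH CSF 3, and lines are group means. ENO2 and NDRG1 are higher in CSF in both lines, P4HA2 is higher in REH CSF alone, and SLC16A3 and ANGPTL4 are at or near 0 in NALM-6.

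Over the whole set, 2 of the 35 measured genes were called higher and 0 lower in NALM-6, with edgeR calling 2 higher and 2 lower and DESeq2 calling 2 higher and 11 lower. At an unadjusted p under 0.05, limma gave 7 higher and 4 lower. The share of all genes at that unadjusted threshold is not given, here or in later paragraphs. It is at least the share called after adjustment, so counts at an unadjusted p have no background to be read against. The edgeR background was 9.34% called, 6.5% higher and 2.83% lower, and that of DESeq2 23.5%, 11.7% higher and 11.9% lower. A call here means a Benjamini-Hochberg adjusted p under 0.05 over the 14364 genes tested. For all genes tested the background was 12.1% called in NALM-6, 10.9% higher and 1.23% lower, so the share of the set lay below it. In REH limma called 8 of 35 higher and 0 lower over all libraries, or 5 of the 32 without SLC16A3, ADM and ANGPTL4. The background there was 14.9%, made up of 13.2% higher and 1.71% lower. At an unadjusted p under 0.05 limma gave 11 higher and 0 lower in REH, and of adjusted calls edgeR gave 8 higher and 0 lower, with a background of 11.2% (8.81% and 2.42%), and DESeq2 8 higher and 3 lower, with a background of 18.8% (12.9% and 5.9%). With median-of-ratios scaling, which moved the median of all genes in NALM-6 from 0.25 to 0.034, the background was 9.84% in NALM-6 (7.47% higher, 2.37% lower) and 13.9% in REH (10.2% and 3.74%). With NALM-6 media 1 and REH CSF 3 left out, the counts grew to 8 higher and 9 lower in NALM-6 and to 16 higher and 5 lower in REH. The background then also grew, to 40.8% in NALM-6 (29.8% higher, 11.0% lower) and 45.9% in REH (32.1% and 13.7%).

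Of the 17 glycolytic enzymes, ENO2 alone was called in each line by limma over all libraries. The count models also gave lower calls. In NALM-6 edgeR called LDHA lower, and DESeq2 called HK1, GPI, ALDOC, GAPDH, PGK1, PGAM1, ENO1, LDHA and LDHB lower. In REH edgeR called 0 enzymes lower, and DESeq2 called HK2, PGK1 and LDHA lower. The backgrounds of these tools for lower calls are those given for the whole set. The median difference of the 17 was -0.13 in NALM-6, where the median of all genes was 0.25, and 0.13 in REH, where it was 0.07. With the 2 libraries left out, 2 enzymes were higher and 8 lower in NALM-6, where 29.8% and 11.0% of all genes were. Their median was -0.22 beside 0.09 for all genes. In REH 4 were higher and 5 lower, where 32.1% and 13.7% of all genes were, with a median of 0.03 beside 0.09. HK2, PFKM, GAPDH, PGK1 and LDHA were the 5 enzymes that fell in both lines in that fit, and ENO2 was the enzyme that rose in both.

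LDHA encodes the lactate dehydrogenase subunit that favours lactate. Its level was 788, 1030 and 964 CPM in NALM-6 media and 704, 725 and 711 CPM in NALM-6 CSF. REH values were 882, 841 and 842 CPM in media and 701, 666 and 801 CPM in CSF. All CSF libraries lay below all media libraries in both lines. Over all libraries the differences were -0.37 (SE 0.13, adjusted p = 0.0876) and -0.25 (SE 0.13, adjusted p = 0.277), which did not pass in limma. For NALM-6 LDHA passed over all libraries with median-of-ratios scaling (-0.66, adjusted p = 0.00917), in edgeR (-0.65, adjusted p = 0.01003), in DESeq2 (-0.67, adjusted p = 6.94e-07) and with the length correction (-0.77, adjusted p = 0.0130), and in REH it passed in DESeq2 (-0.32, adjusted p = 0.0434). The limma differences were -0.48 (SE 0.05, adjusted p = 1.83e-05) and -0.32 (SE 0.05, adjusted p = 0.000255) once the 2 libraries were left out.

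HK2, the hexokinase isoform that is raised in many tumours, changed sign in NALM-6 with a single library. It was read at 83.8, 262 and 296 CPM in NALM-6 media and at 209, 219 and 214 CPM in NALM-6 CSF, so that NALM-6 media 1 alone lay below the CSF libraries. The difference was 0.19 (SE 0.40, adjusted p = 0.750) with all libraries and -0.38 (SE 0.07, adjusted p = 0.000807) without the 2. In REH it went from 117, 129 and 129 CPM to 84.4, 79.999 and 50.3 CPM (log2 -0.83, SE 0.40, adjusted p = 0.235; -0.60, SE 0.07, adjusted p = 1.94e-05 without the 2), and DESeq2 (adjusted p = 0.0194) and limma with the length correction (adjusted p = 0.0304) called it over all libraries. The groups did not overlap in REH, and the library that stood apart was the lowest.

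GAPDH, glyceraldehyde 3-phosphate dehydrogenase, took between 31.4% and 45.3% of the reads of the 17 enzymes. It was read at 8328, 4338 and 3914 CPM in NALM-6 media and at 3221, 3126 and 3051 CPM in CSF, a difference of -0.73 (SE 0.26, adjusted p = 0.0943) with all libraries and -0.40 (adjusted p = 0.00101) without the 2. In REH it was read at 4192, 3932 and 3840 CPM in media and at 3203, 3713 and 5090 CPM in CSF, which overlap, with a difference of -0.02 and, without the 2, of -0.21 (adjusted p = 0.0320). The highest value in each line came from the library that stood apart. ENO1, the widespread enolase, followed the same order in NALM-6, from 3444, 2082 and 1941 CPM to 1631, 1644 and 1607 CPM (log2 -0.56, SE 0.21, adjusted p = 0.113; -0.30, adjusted p = 0.00485 without the 2). In REH, by contrast, ENO1 differed by 0.16 (adjusted p = 0.739) and by 0.0006 without the 2. PGK1 was lower without the 2 libraries by -0.29 in NALM-6 (adjusted p = 0.000448) and by -0.26 in REH (adjusted p = 0.000831), and PFKM by -0.37 (adjusted p = 0.000165) and -0.16 (adjusted p = 0.0247). With all libraries neither gene passed in limma or edgeR in either line. DESeq2 called PGK1 lower in NALM-6 (adjusted p = 0.000677) and REH (adjusted p = 0.00763), and limma with the length correction called PGK1 (adjusted p = 0.0358) and PFKM (adjusted p = 0.0125) lower in NALM-6.

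**Figure D3:**
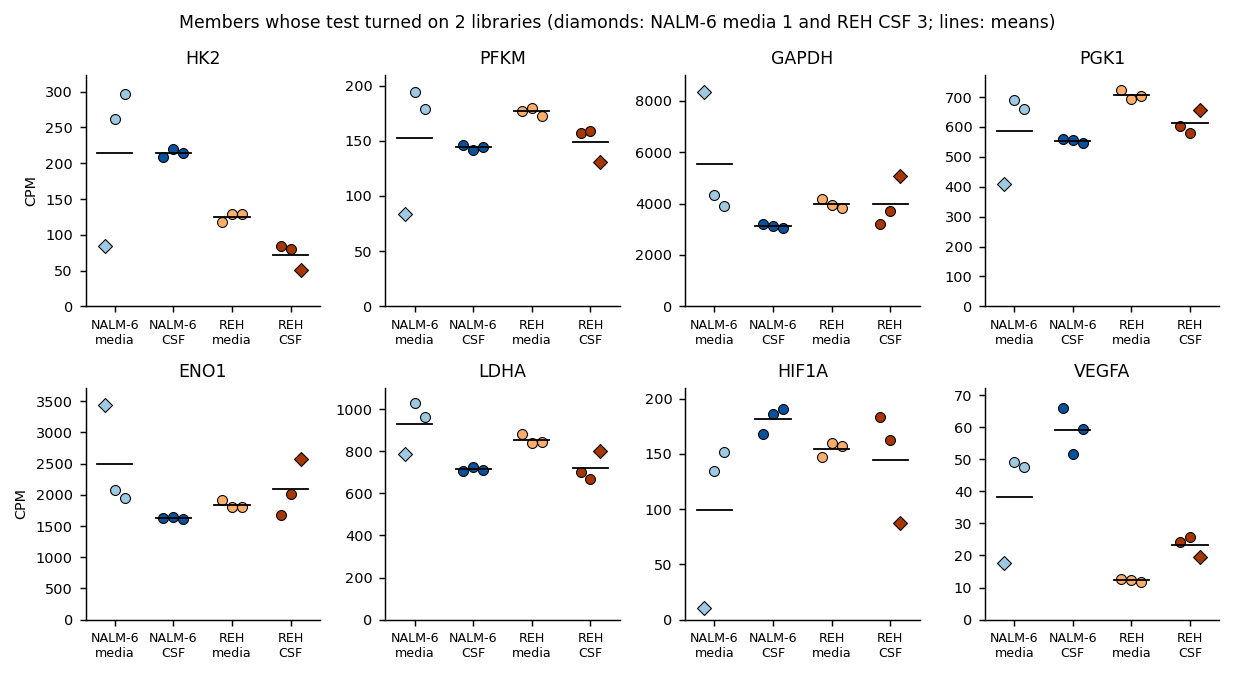
CPM per library (vertical axis, from 0) of 8 genes that limma called in NALM-6 or REH without NALM-6 media 1 and REH CSF 3 but not with them, by group on the horizontal axis; points are libraries, diamonds mark the 2 libraries and lines are group means. In NALM-6 media the diamond lies well away from its replicates for HK2, GAPDH, HIF1A and VEGFA, at 83.8, 8328, 10.6 and 17.7 CPM.

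None of the 17 enzymes passed limma's test of the difference between the lines' responses over all libraries, where 6 had an unadjusted p under 0.05 and edgeR and DESeq2 also called 0. PFKL, the liver-type phosphofructokinase, differed by 0.43 in REH (adjusted p = 0.0961; 0.34, adjusted p = 0.0107 without the 2) and by -0.13 in NALM-6 (adjusted p = 0.561). PFKP, the platelet-type form, differed by 0.58 in NALM-6 (adjusted p = 0.114; 0.27, adjusted p = 0.00768 without the 2) and by 0.14 in REH. PKM differed by -0.33 in NALM-6 (adjusted p = 0.182) and by 0.30 in REH (adjusted p = 0.291; 0.19, adjusted p = 0.0418 without the 2). Aldolase C (ALDOC) and triose phosphate isomerase (TPI1) had the signs of PKM, at -0.48 and -0.51 in NALM-6 and at 0.45 and 0.36 in REH. HK1, GPI and PGAM1 differed by 0.26 or less in size in both lines. Without the 2 libraries GPI passed in NALM-6 (-0.19, adjusted p = 0.0341), as did PGAM1 (-0.16, adjusted p = 0.0344). ALDOA and LDHB were read at only 1.93 to 6.19 CPM and 25.8 to 90.2 CPM. They share 1657 of 3916 and 997 of 2983 exonic bases with another annotated gene on the same strand, and how reads of several genes were counted is not given in the sources used here, so their levels are uncertain. PFKM shares 628 of 7318 exonic bases with SENP1 on the opposite strand.

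Among the 6 transport and switch genes, limma called 0 in NALM-6, where 12.1% of all genes were called. In REH it called SLC16A3 and PFKFB4 higher, where 13.2% of all genes were. SLC16A3 met the minimum level only through REH, so that the filter favoured its call. At an unadjusted p under 0.05 limma gave 2 higher in NALM-6, and edgeR and DESeq2 called 0 there. SLC16A1, which encodes the lactate transporter MCT1, differed by 0.51 in NALM-6 (adjusted p = 0.261) and by -0.21 in REH (adjusted p = 0.768), and by 0.05 and -0.11 without the 2 libraries. Its levels were 143 to 227 CPM in 11 libraries and 80.3 CPM in NALM-6 media 1. Per length, its group means of 31.2 to 41.4 CPM per kb exceeded those of SLC16A3, which reached 0.387 CPM per kb. PFKFB3, the partner isoform of PFKFB4, was read at 8.80, 41.1 and 39.3 CPM in NALM-6 media and at 54.6, 58.6 and 57.3 CPM in CSF. The difference of 1.18 (SE 0.45, adjusted p = 0.116) shrank to 0.49 (SE 0.06, adjusted p = 4.82e-05) without the 2 libraries. In REH it was 0.14 (adjusted p = 0.901), and 0.33 (adjusted p = 0.000637) without them. PFKFB4 differed by 0.36 in NALM-6 (adjusted p = 0.110). PDK1 and PDK3 encode kinases that switch off pyruvate dehydrogenase. Both were low in NALM-6 media 1, at 13.5 and 27.1 CPM against 47.8 to 51.0 and 58.3 to 63.9 CPM in its replicates, and neither passed in NALM-6 (0.62, adjusted p = 0.296, and 0.47, adjusted p = 0.268). In REH PDK3 differed by 0.18 (adjusted p = 0.788), and by 0.40 (adjusted p = 0.00148) without the 2 libraries.

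HIF1A, the oxygen-regulated subunit of HIF, shows how far the fit depended on NALM-6 media 1. Its levels in NALM-6 CSF were 168, 186 and 191 CPM, above the 135 and 152 CPM of NALM-6 media 2 and 3. The difference was 1.55 (SE 0.79, adjusted p = 0.195) with all libraries and 0.34 (SE 0.08, adjusted p = 0.00415) without the 2. HIF1A in REH was read at 147, 160 and 157 CPM in media and at 183, 163 and 87.3 CPM in CSF, with a difference of -0.17 (adjusted p = 0.940) or, without the 2, of 0.16 (adjusted p = 0.112). EGLN1, itself a HIF target, differed by 0.74 (adjusted p = 0.328) in NALM-6 and by -0.45 (adjusted p = 0.705) in REH with all libraries, and by -0.03 and -0.09 without the 2, none of which passed. HIF is set largely by protein stability, so RNA levels give no measure of its activity.

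Among the other HIF targets, limma called 5 of the 10 measured higher in REH over all libraries (ANKRD37, P4HA2, ADM, NDRG1 and ANGPTL4) and 0 lower, where 13.2% of all genes were called higher. ADM and ANGPTL4 met the minimum level only through REH, ADM only through REH CSF, so that the filter favoured their calls, and 3 of the other 8 were called. The median difference in REH was 0.73 over the 10 and 0.45 over those 8, beside 0.07 for all genes. In the fit without the 2 libraries 8 of the 10, or 6 of the 8, were called higher, where 32.1% of all genes were, with medians of 0.66 and 0.40 beside 0.09. In NALM-6 limma called 1 of 10 higher (NDRG1) and 0 lower, where 10.9% and 1.23% of all genes were called. The median there was 0.31 over the 10 and 0.45 over the 8, beside 0.25 for all genes. Over all libraries the median over the 8 was thus 0.45 in both lines, beside unequal medians of all genes. It is not given for NALM-6 without the 2 libraries. In that fit BNIP3, P4HA2, BNIP3L and KDM3A differed in NALM-6 by -0.37, -0.22, -0.08 and -0.04. P4HA1, VEGFA, ANKRD37 and NDRG1 differed by 0.27, 0.28, 0.43 and 1.17. In NALM-6 edgeR, median-of-ratios scaling and the length correction also called BNIP3 lower, and DESeq2 called BNIP3 and P4HA2 lower. Without the 2 libraries 4 were higher and 1 lower in NALM-6, where 29.8% and 11.0% of all genes were, and the median of 0.10 lay beside 0.09 for all genes. The difference in counts between the lines was not tested as such.

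VEGFA encodes the vascular endothelial growth factor. It was read at 12.7, 12.2 and 11.8 CPM in REH media and at 24.1, 25.8 and 19.5 CPM in REH CSF, with no overlap. The difference was 0.85 (SE 0.32, adjusted p = 0.114) with all libraries and 0.97 (SE 0.09, adjusted p = 6.77e-06) without the 2, and edgeR and DESeq2 called it over all libraries as well. In NALM-6 it was read at 17.7, 49.1 and 47.4 CPM in media and at 66.1, 51.7 and 59.5 CPM in CSF (log2 0.74, adjusted p = 0.149; 0.28, adjusted p = 0.0321 without the 2). P4HA1, a relative of P4HA2, went from 40.1, 89.8 and 92.4 CPM to 110, 109 and 110 CPM in NALM-6. In REH P4HA1 went from 20.1, 20.5 and 24.2 CPM to 26.8, 27.8 and 25.5 CPM. Its differences of 0.65 (adjusted p = 0.132) and 0.30 (adjusted p = 0.587) became 0.27 (adjusted p = 0.0161) and 0.33 (adjusted p = 0.00440) without the 2 libraries.

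BNIP3 encodes a mitochondrial protein of mitophagy, and its differences had opposite signs in the lines. BNIP3 was read at 86.7, 80.8 and 80.4 CPM in NALM-6 media and at 62.4, 61.5 and 62.5 CPM in NALM-6 CSF (log2 -0.41, SE 0.13, adjusted p = 0.0656; -0.37, adjusted p = 0.000354 without the 2). In REH its level was 31.2, 31.3 and 29.5 CPM in media and 34.7, 34.7 and 44.9 CPM in CSF (log2 0.29, SE 0.13, adjusted p = 0.181; 0.17, adjusted p = 0.0280 without the 2). The groups overlapped in neither line. Over all libraries BNIP3 in NALM-6 also passed with median-of-ratios scaling (-0.70, adjusted p = 0.0479), in edgeR (-0.72, adjusted p = 0.0357), in DESeq2 (-0.74, adjusted p = 0.00563) and with the length correction (-0.74, adjusted p = 0.0398). The difference between the responses was 0.70 in limma (adjusted p = 0.0609), where DESeq2 and a pseudocount of 5 called it, and 0.54 (adjusted p = 0.000868) without the 2 libraries. Its relative BNIP3L and the histone demethylase gene KDM3A differed by at most 0.08 in size in both lines without the 2 libraries, and passed in neither line under any setting tried.

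Set side by side, the other HIF targets stood closer to the enzymes in CSF than in media in both lines. The mean log2(CPM + 1) of the 10 measured HIF targets minus that of the 17 enzymes was -4.41, -3.92 and -3.86 in NALM-6 media and -3.59, -3.58 and -3.55 in NALM-6 CSF. It was -4.33, -4.25 and -4.27 in REH media and -3.62, -3.68 and -3.81 in REH CSF. Without ADM and ANGPTL4, which met the minimum only through REH, it was -3.54, -2.90 and -2.84 in NALM-6 media against -2.54, -2.58 and -2.51 in CSF, and -3.725, -3.65 and -3.67 in REH media against -3.14, -3.22 and -3.41 in CSF. The groups did not overlap in either line, with or without these genes and with or without the 2 libraries, and this is given as a description with no test. No like value is given for all genes. In NALM-6 the enzyme mean was lower in CSF, at 7.845, 7.82 and 7.81 against 7.91, 8.01 and 7.94 in media. The target mean was higher there, at 4.25, 4.24 and 4.26 against 3.505, 4.09 and 4.08. Without the 2 libraries the median difference of the targets in NALM-6 was 0.10, near that of all genes, while NDRG1 rose by 1.17. In NALM-6 the enzyme share of all reads was 1.84%, 1.25% and 1.16% in media and 0.999%, 0.986% and 0.973% in CSF. In REH it was 1.14%, 1.08% and 1.06% in media and 0.983%, 1.12% and 1.39% in CSF, which overlap. In both lines the highest share came from a library that stood apart.

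**Figure D4:**
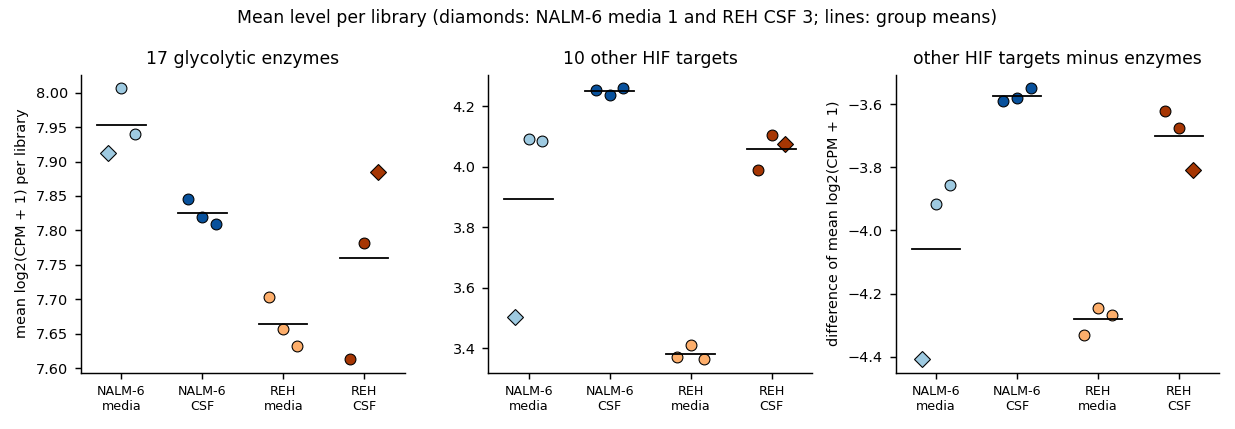
Mean log2(CPM + 1) per library of the 17 glycolytic enzymes (left), the 10 measured other HIF targets (middle) and the difference between the lists (right), by group on the horizontal axis; points are libraries, diamonds mark NALM-6 media 1 and REH CSF 3, and lines are group means. The vertical axes do not start at 0. In the right panel the CSF libraries lie above the media libraries of their line, from -3.81 to -3.55 against -4.41 to -3.86.

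The promoters of these genes were searched for ACGTG on either strand, the core of the hypoxia response element to which HIF binds. Of 35116 RefSeq promoters (GRCh38.p14, 250 bases before to 50 after the gene start), 21.4% held it. Entries exist for 33 of the 37 genes (not used here: SLC16A1, BNIP3L, VEGFA and NDRG1), and 21 of the 33 held a match in at least 1 of their entries. That count is per gene, with no like share of all genes, whereas the 21.4% is per entry. By entry, the shares were 41.0% of 61 for the set, 40.5% of 37 for the enzymes and 55.6% of 9 for the other HIF targets. The letters CACGTG, which hold ACGTG on both strands and are also bound by other factors, were found in 7.26% of all promoters. Printed here are ENO2, which rose in both lines, ANKRD37, which rose in REH, and LDHA and PGK1, which were lower without the 2 libraries. These 4 were chosen after their values were seen, and capitals mark ACGTG or its reverse complement. All lie on the plus strand, at chr12:6914330-6914629, chr4:185396591-185396890, chr11:18394313-18394612 and chrX:78103998-78104297.
ENO2: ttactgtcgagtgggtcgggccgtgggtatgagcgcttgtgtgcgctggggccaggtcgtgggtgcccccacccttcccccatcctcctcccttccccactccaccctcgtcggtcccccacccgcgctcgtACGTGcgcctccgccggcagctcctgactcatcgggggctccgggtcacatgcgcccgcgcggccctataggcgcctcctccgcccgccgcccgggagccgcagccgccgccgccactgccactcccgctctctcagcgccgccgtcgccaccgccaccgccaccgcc
ANKRD37: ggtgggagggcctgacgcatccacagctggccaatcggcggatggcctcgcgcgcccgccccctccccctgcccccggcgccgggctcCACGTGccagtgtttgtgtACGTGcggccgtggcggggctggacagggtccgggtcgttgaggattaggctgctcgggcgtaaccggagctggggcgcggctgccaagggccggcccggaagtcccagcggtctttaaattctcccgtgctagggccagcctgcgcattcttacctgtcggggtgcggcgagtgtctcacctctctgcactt
LDHA: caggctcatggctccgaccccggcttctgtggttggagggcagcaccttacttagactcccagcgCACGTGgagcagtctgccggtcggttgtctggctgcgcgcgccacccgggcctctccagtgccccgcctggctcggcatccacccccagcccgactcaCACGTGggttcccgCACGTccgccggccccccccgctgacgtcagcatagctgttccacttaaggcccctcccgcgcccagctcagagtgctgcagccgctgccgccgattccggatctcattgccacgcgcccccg
PGK1: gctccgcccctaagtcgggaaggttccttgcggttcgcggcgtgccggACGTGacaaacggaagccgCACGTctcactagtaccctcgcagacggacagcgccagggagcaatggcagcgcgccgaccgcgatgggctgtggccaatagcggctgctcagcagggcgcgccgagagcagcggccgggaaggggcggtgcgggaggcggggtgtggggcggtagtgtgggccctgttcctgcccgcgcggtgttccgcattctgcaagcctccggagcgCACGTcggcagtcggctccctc
The ENO2 window holds 1 match, at position -118 from the gene start, ANKRD37 holds 3, LDHA 5 and PGK1 3. In these counts a CACGTG counts once on each strand, so ANKRD37 and LDHA show fewer capital stretches than matches. Genes that rose and genes that did not both hold matches, and a match shows the letters, not binding.

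Limma's test of the difference between the lines' responses to CSF called SLC16A3, P4HA2, ADM and ANGPTL4, which rose more in REH. SLC16A3, ADM and ANGPTL4 met the minimum level only through REH, the line where they are high, so that P4HA2 is the 1 call among the other 32 genes, where 4.23% of all genes were called, 3.03% higher in REH and 1.2% lower. The 4 differences were 1.12 (SE 0.18, adjusted p = 0.00411) for SLC16A3, 1.27 (SE 0.20, adjusted p = 0.00410) for P4HA2, 1.44 (SE 0.20, adjusted p = 0.00203) for ADM and 0.95 (SE 0.15, adjusted p = 0.00440) for ANGPTL4. P4HA2 was read well above the minimum in both lines. Its NALM-6 libraries lay at 10.6, 11.9 and 11.98 CPM in media and at 10.3, 9.58 and 10.4 CPM in CSF, a difference of -0.17 (adjusted p = 0.390), or of -0.49 (adjusted p = 0.0403) in DESeq2. The other 3 had next to no reads in NALM-6. SLC16A3 had 0 reads there in both media, ANGPTL4 had 1 read in each, and ADM had 4 reads in media and 16 in CSF. A difference of logarithms of CPM + 1 is then set by REH alone, and the count models, which compare ratios, called P4HA2 but not these 3 (edgeR 1 call, DESeq2 2, with BNIP3 as the other). Their backgrounds were 0.863% in edgeR (0.487% higher, 0.376% lower) and 4.14% in DESeq2 (2.11% and 2.03%). For ADM the ratio of mean CPM between CSF and media was 4.65 in NALM-6, from these few reads, and 8.13 in REH. With the replicate number as a block, where the background was 2.12% (1.61% higher, 0.515% lower), P4HA2 (adjusted p = 0.0382) and ADM (adjusted p = 0.0193) passed, while SLC16A3 (adjusted p = 0.0597) and ANGPTL4 (adjusted p = 0.0502) did not. SLC16A3 was also lost with the length correction. Without the 2 libraries the count was 9 of 35, or 6 of the 32, where the share of all genes was 15.3% (7.96% higher, 7.34% lower), and added ALDOC, TPI1, PKM, BNIP3 and VEGFA, each with the higher value in REH.

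More of the genes were called between the lines than between media and CSF, as was so for all genes. In media 14 of 35 were called, 4 higher and 10 lower in REH, against a background of 39.9%, made up of 26.4% higher and 13.5% lower. In CSF 16 were called, 6 higher and 10 lower, against 37.9%, made up of 24.5% and 13.4%. Without the 2 libraries the counts were 6 higher and 18 lower in media and 13 higher and 16 lower in CSF, against backgrounds of 67.0% (39.6% and 27.5%) and 69.0% (39.8% and 29.2%). Of the 32 genes other than SLC16A3, ADM and ANGPTL4, 1 was higher and 10 lower in media and 3 higher and 10 lower in CSF over all libraries. Since REH minus NALM-6 in media and in CSF have no library in common, both are given for each gene.

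Several HIF targets were lower in REH in both media. P4HA1 was lower by -1.64 in media (SE 0.27, adjusted p = 0.000491) and by -2.001 in CSF (SE 0.27, adjusted p = 9.62e-05), with group means of 74.1 and 110 CPM in NALM-6 against 21.6 and 26.7 CPM in REH. VEGFA was lower by -1.43 (adjusted p = 0.00437) and -1.32 (adjusted p = 0.00682), ANKRD37 by -1.25 (adjusted p = 8.96e-05) and -0.97 (adjusted p = 0.000525), and BNIP3 by -1.40 (adjusted p = 5.07e-06) and -0.70 (adjusted p = 0.00103). NDRG1 was lower by -1.08 (adjusted p = 0.000971) and -1.09 (adjusted p = 0.000805), so that it rose in both lines from unequal levels. P4HA2 changed order: REH was lower by -0.71 in media (adjusted p = 0.00212) and higher by 0.56 in CSF (adjusted p = 0.00899). With the length correction the CSF value of P4HA2 no longer passed.

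In the glycolytic chain, ALDOC was the enzyme with the largest difference between the lines in media. ALDOC was read at 120, 72.5 and 65.4 CPM in NALM-6 media and at 19.0, 16.7 and 16.2 CPM in REH media (log2 -2.20, SE 0.24, adjusted p = 2.09e-05), and differed by -1.26 in CSF (SE 0.24, adjusted p = 0.00133). TPI1 was lower in REH in media (log2 -1.18, SE 0.26, adjusted p = 0.00421) but did not pass in CSF (-0.31, adjusted p = 0.413). GPI was lower in both, by -0.79 (adjusted p = 0.000295) and -0.40 (adjusted p = 0.0205). HK2 was lower by -1.60 in CSF (adjusted p = 0.00784), while in media it did not pass with all libraries (-0.58, adjusted p = 0.261) and did without the 2 (-1.15, adjusted p = 1.02e-08). ENO2 and PKM were higher in REH in CSF by 0.39 (adjusted p = 0.0162) and 0.49 (adjusted p = 0.0329), and both calls were lost with median-of-ratios scaling, in edgeR, in DESeq2, with the replicate block and with the length correction, and without NALM-6 CSF 2. So was the call of GPI in CSF, which was also lost without NALM-6 CSF 1, NALM-6 CSF 3 or REH CSF 1. The PKM call was further lost with no filter and without NALM-6 CSF 1, NALM-6 CSF 3, any REH media library, REH CSF 2 or REH CSF 3.

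Around pyruvate, the kinase gene PDK3 was lower in REH in both media and PDK1 in CSF. PDK3 differed by -1.24 in media (adjusted p = 0.00610) and -1.53 in CSF (adjusted p = 0.00153), with group means of 49.7 and 65.1 CPM in NALM-6 against 19.2 and 22.3 CPM in REH. PDK1 was lower in CSF by -1.43 (adjusted p = 0.0187), a call lost without NALM-6 CSF 2, NALM-6 CSF 3 or REH CSF 3, and differed in media by -0.40 (adjusted p = 0.453), or by -0.99 (adjusted p = 3.33e-07) without the 2 libraries. PFKFB3 was higher in REH media by 1.28 (SE 0.45, adjusted p = 0.0456), and by 0.59 (adjusted p = 1.79e-06) without the 2 libraries. With no filter, with a filter at 5 CPM, in edgeR, and on leaving out one library of NALM-6 CSF, REH media or REH CSF, this call was lost. SLC16A3 was at least 34.7-fold higher in REH media and at least 101-fold higher in REH CSF, taking 3 reads over the NALM-6 group as its upper limit. Its call in media was lost with the length correction, alone (adjusted p = 0.191) and with the replicate block (adjusted p = 0.220, both by limma). ANGPTL4, with 1 read in each NALM-6 group, was 176-fold higher in REH media (95% counting interval 31.7 to 6965) and 385-fold higher in REH CSF (69.1 to 15205). ADM was higher in REH by 0.44 in media (adjusted p = 0.0319) and by 1.87 in CSF (adjusted p = 9.59e-07). The call in media was lost with a pseudocount of 5, with no filter, with median-of-ratios scaling, with the replicate block, with the length correction, and without NALM-6 media 2, NALM-6 media 3, REH media 2 or REH media 3.

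**Figure D5:**
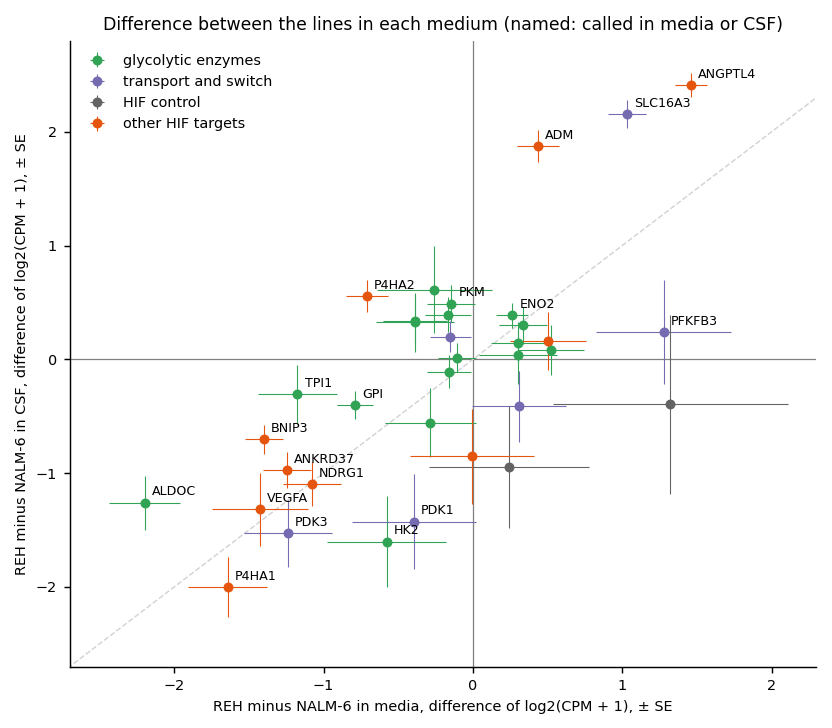
REH minus NALM-6 for each of the 35 measured genes in media (horizontal axis) and in CSF (vertical axis), as differences of log2(CPM + 1) with their SE, coloured by class; the dashed line marks equal differences, and genes called in either medium are named. P4HA1, VEGFA, BNIP3, ANKRD37, NDRG1, ALDOC and PDK3 lie below 0 on both axes, SLC16A3 and ANGPTL4 above 0 on both, and P4HA2 lies at -0.71 in media and 0.56 in CSF.

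Levels among the genes are compared per length, as mean CPM per kilobase of exon. GAPDH was the highest in every group, at 1854, 1051, 1338 and 1343 CPM per kb in NALM-6 media, NALM-6 CSF, REH media and REH CSF. ENO1, TPI1 and PKM followed, with ENO1 at 308 to 472, TPI1 at 146 to 349 and PKM at 176 to 249 CPM per kb, and the order of TPI1 and PKM was not the same in every group. ENO2 lay at 4.89, 9.56, 5.91 and 12.6 CPM per kb, so enolase RNA came mostly from ENO1 in all groups. HK2 exceeded HK1 in NALM-6 (35.3 against 12.05 CPM per kb in media) and fell below it in REH CSF (11.8 against 15.4 CPM per kb). BNIP3L, P4HA1, BNIP3 and HIF1A led the remaining genes of the HIF groups, between 5.76 and 35.5 CPM per kb, while ADM, ANGPTL4 and SLC16A3 stayed at or below 1.78 CPM per kb. GAPDH has 62 pseudogenes in the table, which together held a mean of 5.11 CPM, so reads that could be placed in either may be missing from its level.

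Further genes of the same pathways were counted in lists that hold none of the 37. Of glucose entry and other glycolytic isoenzymes, 10 of 20 were measured, and limma called 2 higher and 0 lower in each line, where 10.9% of all genes were called higher in NALM-6 and 13.2% in REH. SLC2A3, which encodes the glucose transporter GLUT3, rose from 9.51 ± 3.59 to 35.3 ± 0.942 CPM in NALM-6 (SD, n = 3; log2 1.86, adjusted p = 0.000535) and from 12.4 ± 0.506 to 28.9 ± 2.64 CPM in REH (log2 1.15, adjusted p = 0.00620). TIGAR, whose product lowers fructose 2,6-bisphosphate, rose in NALM-6 by 1.52 (adjusted p = 0.0194), a call lost with each line alone and on leaving out NALM-6 CSF 1, 2 or 3, and the glycerol phosphate dehydrogenase gene GPD1 rose in REH by 0.53 (adjusted p = 0.0115), a call lost without REH media 1. Of the genes that decide the fate of pyruvate, 15 of 17 were measured. PDHB, a subunit gene of pyruvate dehydrogenase, fell by 0.58 in NALM-6 (adjusted p = 0.0262, or adjusted p = 0.106 with the replicate block, and lost on leaving out NALM-6 media 2 or one of the NALM-6 CSF libraries), and MPC2, a mitochondrial pyruvate carrier gene, rose by 0.56 in REH (adjusted p = 0.0394, or adjusted p = 0.119 with the block, and lost in edgeR and DESeq2). Of the pentose phosphate pathway, 7 of 8 were measured, and TKT, the transketolase gene, fell by 0.45 in NALM-6 (adjusted p = 0.0460, or adjusted p = 0.144 with the block, and lost on leaving out one of the NALM-6 CSF libraries). In REH 0 of the 7 passed in limma, edgeR or DESeq2, and 1 had an unadjusted p under 0.05 in limma. Without the 2 libraries 3 of the 7 passed in REH, where 45.9% of all genes did.

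Of the HIF machinery, 11 of 14 list entries were measured. HIF3A, a HIF alpha subunit that can act as an inhibitor, fell in NALM-6 from 6.36 ± 0.423 to 2.86 ± 0.518 CPM (SD, n = 3, log2 -0.94, adjusted p = 0.000310) and had 0 to 0.0783 CPM in REH. EPAS1, another HIF alpha subunit gene, was not called by limma between CSF and media. Its means in media and CSF were 5.64 and 14.4 CPM in NALM-6, with 1.20 CPM in NALM-6 media 1, and 1.07 and 3.37 CPM in REH. It was lower in REH by -1.44 in media (adjusted p = 0.0343) and by -1.88 in CSF (adjusted p = 0.00893). The call in media was lost without NALM-6 media 2 or NALM-6 media 3. In REH 0 of the 11 passed in limma or edgeR and 1 in DESeq2, and 0 had an unadjusted p under 0.05 in limma. Without the 2 libraries 2 of the 11 passed in REH, where 45.9% of all genes did. Of 25 further HIF targets, 18 were measured, and 3 rose in NALM-6 and 5 in REH, against the same shares of all genes, with medians of 0.46 and 0.06 beside 0.25 and 0.07 for all genes. DDIT4, which restrains mTOR and is induced by several stresses besides hypoxia, rose by 1.43 in NALM-6 (adjusted p = 0.000374) and by 2.71 in REH (adjusted p = 1.77e-06). In REH BHLHE40, a transcriptional repressor gene, rose by 1.09 (adjusted p = 0.0174), a call lost without REH media 1, REH media 3, REH CSF 1 or REH CSF 2. STC2, the stanniocalcin 2 gene, in NALM-6 (adjusted p = 0.0496) and GBE1, the glycogen branching enzyme gene, in REH (adjusted p = 0.04999) passed narrowly and were lost under most alternatives. AK4 and STC2 marked the largest differences between the lines in media among the listed genes, at -7.14 (adjusted p = 3.93e-09) and -6.34 (adjusted p = 2.81e-10), with means of 234 and 87.4 CPM in NALM-6 media and 0.584 and 0.0815 CPM in REH media.

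Markers of other cell types were low. T cell and red cell markers summed to at most 0.185 CPM in any library. Of 6 myeloid markers, S100A8, S100A9 and FCGR3A had no read, and the summed level was 1.20 to 2.59 CPM in NALM-6 media, 5.19 to 6.48 in NALM-6 CSF, 4.80 to 5.34 in REH media and 17.2 to 19.0 in REH CSF, carried by LYZ in NALM-6 and by CSF1R and LYZ in REH. These sums moved with CSF, and their part in the results was not tested. Of 5 neural and choroid plexus markers, AQP4, SNAP25 and TTR had no read and GFAP at most 0.391 CPM, while MBP was present in every group at 14.3 to 121 CPM.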

How the data were processed

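RNA of the 12 libraries was extracted with a Qiagen RNeasy Plus kit and made into stranded TruSeq mRNA libraries, per the labels' protocols. Tools listed in the submitters' processing notes are Trimmomatic 0.33 and FastQC, HISAT2 2.1.0 with GRCh38, edgeR and featureCounts. Annotation release and strand setting: not given in the sources used here. Values in the table that the authors deposited are CPM per gene, scaled to sum to 1000000 per library. All of them (100%, tolerance 1e-06) gave whole reads, and 3 reads are worth 0.0808 to 0.128 CPM.

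The test was limma 3.58.1 (R 4.3.3) on log2(CPM + 1), with 4 group means, moderated variances with a trend and Benjamini-Hochberg adjustment over 14364 genes with at least 1 CPM in 3 libraries, two-sided, called at 0.05. Differences on this scale understate changes of genes near 1 CPM. edgeR 4.0.16 and DESeq2 1.42.0 were run on the recovered reads as alternatives, and the fits were checked on simulated data. The simulated data held no library that stood apart, so the check does not bear on the effect of NALM-6 media 1 or REH CSF 3. Other alternatives were median-of-ratios scaling, a pseudocount of 0.25 or 5, a minimum of 5 CPM or none, each line alone, a replicate block, a length correction, and leaving out libraries. Deviations of same-numbered libraries correlated at r = 0.356, 0.193 and 0.171 in NALM-6 and at -0.462, 0.236 and -0.319 in REH. Differently numbered NALM-6 libraries reached like values, with media 3 and CSF 2 at 0.233 and media 2 and CSF 3 at 0.156. The deviations are from means of 3 libraries, which a library that stands apart can shape. They do not settle whether the numbers pair libraries in either line. Each measured gene of the set is named, with values per library for those called in CSF; of each further list, up to 4 called genes per comparison are named by size. The genes and lists were chosen with earlier results of these data known. Coordinates, exonic lengths and overlaps came from GENCODE 29 (58542 of 60617 IDs matched) and promoters from RefSeq. PGLS is not analysed here. A gene of the further HIF target list is counted with that list but not reported by name here.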

Additional observations from a re-analysis of the deposited data

Results flagged for a closer look

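Of the 35 measured genes, 4 were picked out because the lines differed in their response to CSF by a test of that difference (limma, REH minus NALM-6 on the log2(CPM + 1) scale): SLC16A3 at 1.12, P4HA2 at 1.27, ADM at 1.44 and ANGPTL4 at 0.95. In REH each was higher in all 3 CSF libraries than in any media library. P4HA2 alone of the 4 was called in edgeR and DESeq2 as well, and the other 3, which met the minimum level only through REH, had between 0 and 16 reads per NALM-6 group.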

How the results depend on the processing

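The number of the 35 genes called in NALM-6 (2 as reported) was 4 with median-of-ratios scaling, 4 in edgeR, 13 in DESeq2, 6 with the length correction, 1 with the length correction and replicate block, and 17 with NALM-6 media 1 and REH CSF 3 both left out. In REH (8) it was 5 with a filter at 5 CPM and 21 without the 2 libraries. For the difference of the responses (4) it was 1 with the 5 CPM filter, 1 in edgeR, 2 in DESeq2, 2 with the replicate block, 2 with the length correction and block, and 9 without the 2 libraries. Between the lines it went from 14 to 24 in media and from 16 to 29 in CSF without the 2 libraries. The enzyme median in NALM-6 (-0.13) was -0.42 with median-of-ratios scaling, -0.47 in edgeR, -0.50 in DESeq2 and -0.58 with the length correction, with or without the block. In REH (0.13) it was 0.050 with median-of-ratios scaling, 0.057 in DESeq2, 0.039 with the length correction, with or without the block, and 0.033 without the 2 libraries. The HIF target median in REH (0.73) was 0.37 with a pseudocount of 5, 0.45 with the 5 CPM filter and 0.57 with the length correction, with or without the block. Leaving out 1 library at a time gave 2 to 7 calls in NALM-6, 7 to 16 in REH, 4 to 5 for the difference of the responses, 12 to 20 in media and 12 to 24 in CSF; the 7 and the 16 came without NALM-6 media 1. The enzyme median ranged from -0.22 to -0.11 in NALM-6 and from 0.033 to 0.18 in REH, the HIF target median from 0.10 to 0.39 and from 0.66 to 0.82. The cause of these shifts was not tested. No share of all genes is given for the length correction, the 5 CPM filter or the fits that leave out 1 library. Their counts of calls thus have no background to be read against. Without the 2 libraries the share of all genes called also rose, from 12.1% to 40.8% in NALM-6 and from 14.9% to 45.9% in REH. With SLC16A3, ADM and ANGPTL4 not counted, a choice made after seeing the data, the calls were 2 in NALM-6, 5 in REH, 1 for the difference of the responses, 11 in media and 13 in CSF. Over all 12 libraries the HIF target median without ADM and ANGPTL4 was 0.45 in NALM-6 and in REH.

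Signs reversed for genes that limma did not call in that line over all libraries. Among the reversed values in NALM-6, those of HK1 and PGAM1 in DESeq2 (adjusted p = 0.0217 and 0.00204), of PFKM with the length correction (0.0125) and without NALM-6 media 1 (0.0240), and of HK2, PFKM and PGAM1 without the 2 libraries (0.000807, 0.000165 and 0.0344) passed the threshold. In edgeR in NALM-6 HK1 was -0.20, HK2 -0.19, PFKM -0.30, ALDOA -0.11, PGAM1 -0.27, BNIP3L -0.012 and ANGPTL4 -0.039, and in REH HK1 was -0.024 and PGAM1 -0.0042. In DESeq2 in NALM-6 HK1 was -0.22, HK2 -0.19, PFKM -0.31, ALDOA -0.12, PGAM1 -0.29, BNIP3L -0.022 and ANGPTL4 -0.11, and in REH HK1 was -0.036 and PGAM1 -0.016. With median-of-ratios scaling in NALM-6 HK1 was -0.22, HK2 -0.097, PFKM -0.28, ALDOA -0.034 and PGAM1 -0.29, and in REH HK1 was -0.038 and PGAM1 -0.017. With the length correction, with or without the replicate block, in NALM-6 HK1 was -0.33, HK2 -0.19, PFKM -0.45, ALDOA -0.041, PGAM1 -0.050, PDK1 -0.049, PFKFB4 -0.029, KDM3A -0.065 and ANGPTL4 -0.040, and in REH PGAM1 was -0.15 and LDHB -0.038. Without NALM-6 media 1 and REH CSF 3 in NALM-6 HK1 was -0.11, HK2 -0.38, PFKM -0.37, ALDOA -0.24, PGAM1 -0.16, EGLN1 -0.026, BNIP3L -0.076, KDM3A -0.040 and ANGPTL4 -0.0055, and in REH LDHB was -0.20 and HIF1A 0.16. Leaving out 1 library at a time gave ranges that cross 0, in NALM-6 HK1 -0.11 to 0.18, HK2 -0.38 to 0.53, PFKM -0.37 to 0.23, ALDOA -0.24 to 0.41, PGK1 -0.29 to 0.090, PGAM1 -0.16 to 0.12, EGLN1 -0.026 to 1.15, BNIP3L -0.076 to 0.52, KDM3A -0.040 to 0.91 and ANGPTL4 -0.015 to 0.016, and in REH HK1 -0.032 to 0.091, ALDOA -0.28 to 0.063, GAPDH -0.21 to 0.13, LDHB -0.20 to 0.33 and HIF1A -0.37 to 0.16.

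With the replicate block no call of CSF against media in NALM-6 was lost; in REH ANKRD37 was lost (adjusted p = 0.117).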
